A study of Homo sapiens with 4 samples.

Results

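Heat shock proteins and J-domain co-chaperones of KYSE150 cells were examined after an siRNA against CEBPG. The genes were taken by name from the deposited table. They comprise the HSP70 and HSP110 families (HSPA and HSPH), HSP90, the small heat shock proteins (HSPB), the mitochondrial chaperonin pair (HSPD and HSPE), the DNAJA, DNAJB and DNAJC families, BAG1 to BAG6, and the heat shock factors HSF1 and HSF2. Of 17825 genes in the table, 86 carried such a name, among them 13 pseudogenes and 2 antisense RNAs. A textbook location was given to the other 71. The cytosol and nucleus held 38 of them, the endoplasmic reticulum (ER) 13 and mitochondria 9, and 11 were vesicle proteins or were assigned to none of these.

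KYSE150 is an established human line from an esophageal squamous cell carcinoma, grown here in RPMI1640 with 10% FBS. The siCEBPG group has 2 libraries from cells transfected with an siRNA to CEBPG, which encodes the transcription factor C/EBP gamma. The Control group has 2 libraries from cells of the same line labelled as negative control. All libraries come from 1 line, the file headers number the siRNA duplex 1, and separate cultures are not named in the labels, so the p-values cover only the variation among these libraries, which could be technical.

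HSP70 proteins bind exposed hydrophobic stretches of unfolded proteins and release them in cycles driven by ATP. J-domain proteins (DNAJ) bring clients and stimulate the ATPase, and nucleotide exchange factors such as HSP110 and BAG proteins end the cycle. HSP90 acts later on signaling proteins, while the mitochondrial matrix and the ER lumen have HSP70 proteins of their own. HSF1 drives the cytosolic heat shock genes, and the unfolded protein response drives those of the ER.

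Library totals were 15432762 and 15489075 counts in siCEBPG and 15536501 and 15515901 in Control. CEBPG had 214 and 204 counts in siCEBPG libraries, against 792 and 751 in Control libraries. Its normalised level was 13.1 ± 0.44 CPM in siCEBPG cells and 51.5 ± 1.86 CPM in Control cells (SD, n = 2 each), which is 3.93-fold lower with knockdown (log2 fold change -1.98, SE 0.077 and adjusted p = 1.82e-11 in edgeR). CPM is the count scaled to the size of the TMM-corrected library. Of 10 squamous markers, 9 were listed, and each reached at least 1 RPKM in every library. Their summed level was 431 to 440 RPKM in siCEBPG and 374 to 380 RPKM in Control, and the part of this shift in the results was not tested. Immune, endothelial and stromal markers summed to 1.63 to 1.90 RPKM in siCEBPG and 1.44 to 1.62 RPKM in Control, with 5 of 10 listed. Retina markers, included because the design text uses the word retinal, summed to 1.49 to 1.97 RPKM in siCEBPG and 1.39 to 1.86 RPKM in Control, with 2 of 5 listed. In bulk RNA, fewer cells of a type and less RNA per cell cannot be told apart.

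Several abundant chaperones were lower in siCEBPG cells. HSPA8, HSP90AB1, HSP90AA1, HSPA9 and HSPD1 all fell, while several rarer DNAJ genes rose. Of the 86 genes, 70 passed the filter on low counts and were tested. At an edgeR adjusted p under 0.05, 17 (24.3%) were higher and 29 (41.4%) lower, beside 25.5% higher and 28.8% lower, 54.3% in either direction, among all 14207 genes tested. The share that rose was close to that of all genes. Scaling by upper-quartile factors made it 21 members higher (30.0%) and 22 lower (31.4%), beside 31.9% higher and 23.9% lower of all genes. Scaling by total counts made it 23 (32.9%) and 19 (27.1%), beside 34.8% higher and 21.7% lower of all genes. The median log2 fold change was -0.12 for these genes and 0.005 for all genes. Most changes were small. Among the called genes, 5 were higher and 4 lower by at least 1.5-fold.

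**Figure D1:**
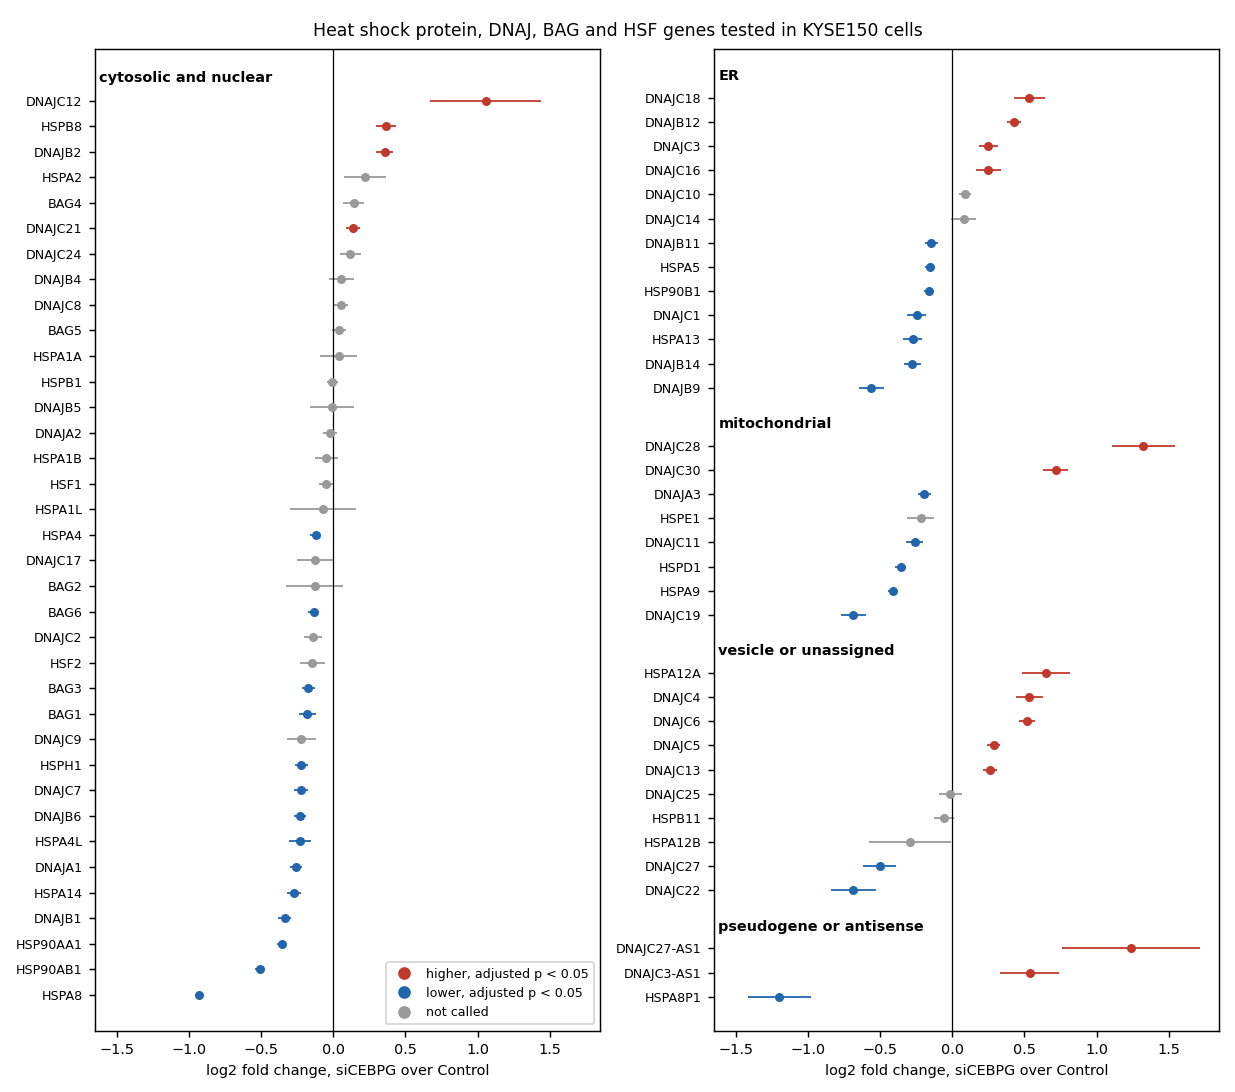
Log2 fold changes (siCEBPG over Control, horizontal axis) of the tested chaperone genes, grouped by location, with bars of 1 SE; red points are higher and blue points lower at an edgeR adjusted p under 0.05. HSPA8 lies lowest among the cytosolic genes at -0.93, and DNAJC28 is the highest of all at 1.32.

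The abundant members were called lower more often than the rarer ones, by a count that depended on the scaling. Of 21 chaperone genes that averaged 100 CPM or more, 16 (76.2%) were lower and 1, DNAJC5, was higher. Among all 2495 genes at that level, 48.6% were lower and 25.9% higher. With upper-quartile factors 11 of the 21 (52.4%) were lower, beside 40.2% of all such genes. With total counts alone 9 of them (42.9%) were lower and 3 higher, beside 36.6% and 38.0% of all such genes. BAG3, BAG6, DNAJA3, DNAJB11, HSP90B1, HSPA4 and HSPA5 then lost the call, and DNAJC10 and HSPB1 were called higher. With any 1 library left out, fewer of the 21 were called lower, and so were fewer of all genes at that level. Of the 49 chaperone genes under 100 CPM, 13 were lower and 16 higher. All 11712 genes at that lower level had 24.6% lower and 25.4% higher. This division by level was chosen after the values were seen.

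HSPA8, the constitutive HSP70 of the cytosol, had the largest fall among the abundant members. It had 887 and 901 CPM in siCEBPG libraries, against 1705 and 1695 CPM in Control libraries. Both siCEBPG libraries were far below both Control libraries. The level was 1.90-fold lower (log2 fold change -0.93, SE 0.033 and adjusted p = 8.77e-12 in edgeR). Processed copies of HSPA8 are many, and the sources used here do not give how their reads were counted. Of these, HSPA8P1 had 25 and 26 counts in siCEBPG libraries, against 55 and 55 in Control libraries. This pseudogene was also lower (log2 fold change -1.20, SE 0.22 and adjusted p = 0.000284 in edgeR), and its values are uncertain for the same reason.

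HSP90AB1, the constitutive cytosolic HSP90, had 937 and 968 CPM in siCEBPG libraries and 1353 and 1361 CPM in Control libraries. HSP90AA1, the stress-inducible form, had 1071 and 1070 CPM in siCEBPG libraries and 1373 and 1371 CPM in Control libraries. For both genes the 2 siCEBPG libraries were the lower ones, with no overlap. The log2 fold change was -0.51 for HSP90AB1 (SE 0.034 and adjusted p = 7.21e-09 in edgeR) and -0.36 for HSP90AA1 (SE 0.033 and adjusted p = 2.37e-07 in edgeR). HSP90 genes also have pseudogenes of similar sequence, so their values carry the same uncertainty.

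Per length, the order of the abundant cytosolic transcripts differed between the groups. In siCEBPG cells HSPA8 was at 191 ± 1.55 RPKM, below HSP90AA1 at 211 ± 0.66 RPKM (SD, n = 2). In Control cells HSPA8 was at 338 ± 1.59 RPKM, above HSP90AA1 at 252 ± 0.44 RPKM (SD, n = 2). These levels were farther apart than their SDs in each group. The small heat shock protein gene HSPB1 led in siCEBPG at 548 ± 29.5 RPKM, and in Control at 514 ± 15.5 RPKM (SD, n = 2 each), with HSP90AB1 next at 352 ± 7.18 RPKM in siCEBPG and 468 ± 1.76 RPKM in Control.

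HSPA8, HSP90AA1 and HSP90AB1 made up most of the difference in summed cytosolic chaperone level. All cytosolic and nuclear members together summed to 6308 and 6415 CPM in siCEBPG libraries, against 8095 and 8111 CPM in Control libraries. Without these 3 genes the other 35 summed to 3417 and 3478 CPM in siCEBPG libraries and 3668 and 3688 CPM in Control libraries. Both sums were lower in siCEBPG without overlap at the TMM scale. As plain shares of the library total the groups did not overlap for all members, and overlapped for the other 35, at 0.354% and 0.359% in siCEBPG libraries and 0.355% and 0.356% in Control libraries. The genes left out were picked as the most abundant ones that fell, so this is a description.

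**Figure D2:**
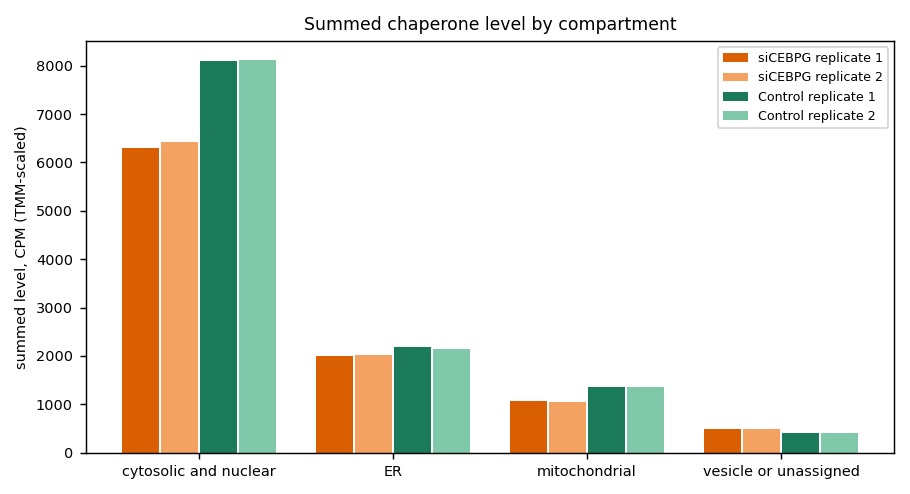
Summed level in TMM-scaled CPM (vertical axis) of each location group in the 2 siCEBPG and 2 Control libraries, 1 bar a library. The cytosolic sum is lower in siCEBPG at 6308 and 6415 CPM, against 8095 and 8111 CPM in Control, while the small vesicle or unassigned group is higher at 484 and 489 CPM in siCEBPG, against 413 and 409 CPM in Control.

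Promoters of the abundant members were read for the binding word of heat shock factors, since several are known targets of HSF1. The word sought was 3 alternating GAA and TTC units with NN between them, on both strands, in the 300 bases from 250 before to 50 after the annotated start (RefSeq, GRCh38.p14). Of the 71 genes, 63 had an entry; BAG4, DNAJC1, DNAJC22, DNAJC24, HSF1, HSPA12B, HSPA14 and HSPB11 had none. The word was in 172 of 35116 promoters (0.49%) and in 44 of 9351 tested genes with an entry (0.471%). Of 60 tested chaperone genes with an entry, 6 (10.0%) held it, and all 6 were lower in siCEBPG. All 6 also averaged 100 CPM or more, a level at which 76.2% of members and 48.6% of all genes were lower. The 6 are shown because they include the genes above. Each line gives the strand of the gene, 5′ to 3′, with the word in capitals.
HSPA8, chr11:123062169-123062376, minus strand: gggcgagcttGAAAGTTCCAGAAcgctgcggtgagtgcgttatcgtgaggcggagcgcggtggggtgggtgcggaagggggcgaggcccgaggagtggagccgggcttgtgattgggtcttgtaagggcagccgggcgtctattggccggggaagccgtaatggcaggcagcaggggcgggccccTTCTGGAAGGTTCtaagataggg
HSP90AB1, chr6:44247768-44247853, plus strand: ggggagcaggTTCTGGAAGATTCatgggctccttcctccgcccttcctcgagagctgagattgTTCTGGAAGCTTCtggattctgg
HSP90AA1, chr14:102087110-102087142, minus strand: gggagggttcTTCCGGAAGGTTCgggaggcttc
HSPD1, chr2:197500058-197500090, minus strand: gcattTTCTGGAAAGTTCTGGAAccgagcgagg
DNAJA1, chr9:33025266-33025298, plus strand: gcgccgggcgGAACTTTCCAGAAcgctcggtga
DNAJB6, chr7:157336863-157336895, plus strand: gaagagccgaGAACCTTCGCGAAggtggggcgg

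HSPA8, HSP90AB1 and HSPD1 each hold the word 2 times, and in HSPD1 the pair overlaps. That pair also lies within the annotated span of HSPE1, which is on the other strand and was not called. The promoter of DNAJB1, DNAJB9 or HSPH1 holds no such word in this window. Nor do those of BAG3 and HSPA4L, which were lower. The windows of HSPA1A, HSPA1B, HSPB1, HSPE1 and DNAJB4, which were not called, also lack it. Of the 38 other tested genes with the word, 15 were lower and 11 higher, with a median log2 fold change of -0.02. A match describes these letters and is no evidence of binding.

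**Figure D3:**
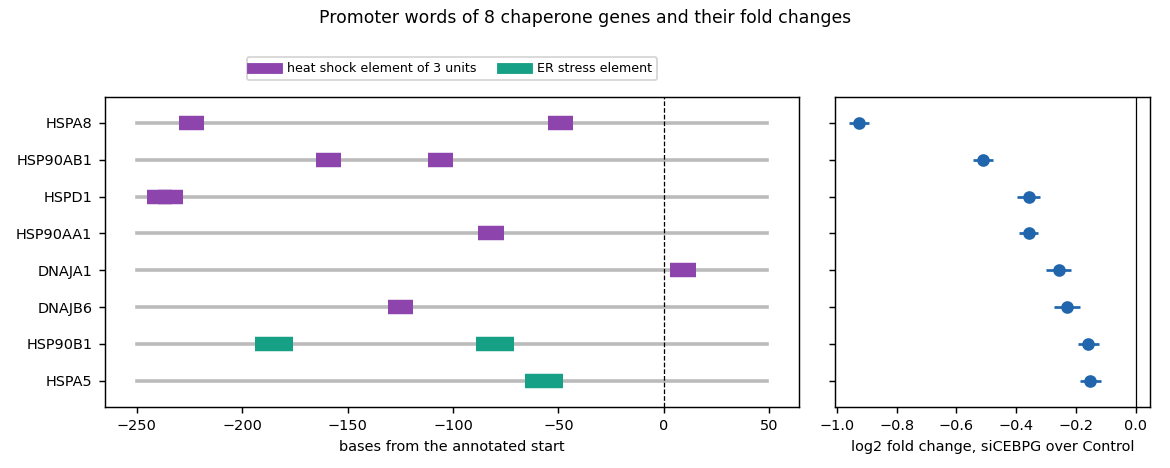
Left, positions of the heat shock element and of the ER stress element in 8 promoters (bases from the annotated start, horizontal axis). Right, the log2 fold change (siCEBPG over Control) of each gene with bars of 1 SE; all 8 lie below 0, HSPA8 lowest at -0.93 and HSPA5 nearest to 0 at -0.15.

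The heat shock factors themselves were not called. HSF1 had 114 and 122 CPM in siCEBPG libraries and 121 and 124 CPM in Control libraries (log2 fold change -0.05, SE 0.047 and adjusted p = 0.379 in edgeR). HSF2 had 22.7 and 20.3 CPM in siCEBPG libraries and 25.1 and 22.4 CPM in Control libraries (log2 fold change -0.14, SE 0.089 and adjusted p = 0.188 in edgeR). The libraries of the groups overlap for both genes.

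Of 15 genes listed as heat-inducible, 14 were tested, and 9 (64.3%) were lower and the other 5 not called, with a median log2 fold change of -0.23. HSPA6 was not analysed here. The list includes HSPA8 and HSP90AB1, described above as constitutive, and both are among the lower genes. Those not called were HSPA1A, HSPA1B, HSPB1, HSPE1 and DNAJB4. Of all genes 28.8% were lower, and of all those at 100 CPM or more 48.6%. Upper-quartile factors or total counts alone left 7 of the 14 lower, and total counts alone also called 1, HSPB1, higher. With upper-quartile factors 23.9% of all genes were lower, and 40.2% of those at 100 CPM or more. With total counts alone these shares were 21.7% and 36.6%. DNAJB1, the main J-protein partner of HSP70 after heat shock, had 135 and 140 CPM in siCEBPG libraries and 176 and 171 CPM in Control libraries. DNAJA1, a J-protein that assists HSPA8, had 137 and 136 CPM in siCEBPG libraries and 161 and 165 CPM in Control libraries. Both were lower in each siCEBPG library than in either Control library. Their log2 fold changes were -0.34 (SE 0.042 and adjusted p = 7.87e-06 in edgeR) for DNAJB1 and -0.26 (SE 0.042 and adjusted p = 9.07e-05 in edgeR) for DNAJA1. HSPH1, the inducible HSP110, had 200 and 211 CPM in siCEBPG libraries and 246 and 233 CPM in Control libraries. BAG3, an exchange factor of selective autophagy, had 200 and 195 CPM in siCEBPG libraries and 213 and 232 CPM in Control libraries. Neither pair of groups overlapped, and the log2 fold changes were -0.22 for HSPH1 (SE 0.043 and adjusted p = 0.000482 in edgeR) and -0.17 for BAG3 (SE 0.044 and adjusted p = 0.00389 in edgeR). HSPH1 lost its call without siCEBPG replicate 1 or Control replicate 1, and BAG3 in 5 of 11 other settings of scaling, filter, libraries or tool, 3 of which left out siCEBPG replicate 1, siCEBPG replicate 2 or Control replicate 2. Adjusted p over these settings reached 0.0718 for HSPH1 and 0.156 for BAG3.

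Neither gene of the classic stress-inducible HSP70 pair was called. HSPA1A had 7.95 and 7.38 CPM in siCEBPG libraries and 7.47 and 7.48 CPM in Control libraries. HSPA1B had 30.3 and 30.9 CPM in siCEBPG libraries and 34.3 and 29.0 CPM in Control libraries. The groups overlap for both. Log2 fold changes were 0.04 for HSPA1A (SE 0.13 and adjusted p = 0.834 in edgeR) and -0.05 for HSPA1B (SE 0.082 and adjusted p = 0.648 in edgeR). Their coding sequences are nearly identical, so the split of reads between them is uncertain. HSPB1 had 833 and 902 CPM in siCEBPG libraries, spanning the Control libraries at 852 and 890 CPM (log2 fold change -0.01, SE 0.041 and adjusted p = 0.919 in edgeR). With total counts alone HSPB1 was called higher, at 0.093 on a log2 scale (adjusted p = 0.0495 in edgeR).

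**Figure D4:**
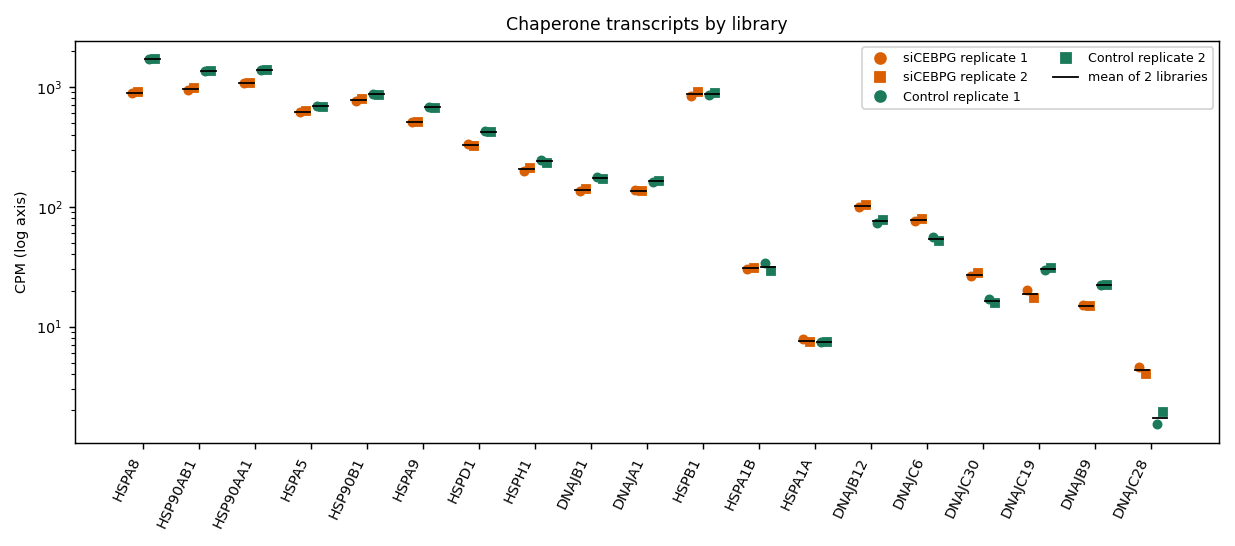
Normalised level in CPM (vertical log axis) of 19 chaperone genes in each library, siCEBPG left of Control, with a line at the mean of 2 libraries. HSPA8 shows the widest gap among the abundant genes, at 887 and 901 CPM in siCEBPG and 1705 and 1695 CPM in Control, while the points of HSPB1, HSPA1B and HSPA1A overlap.

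Over the cytosolic and nuclear group, 36 genes were tested, with a median log2 fold change of -0.12. Of these, 4 (11.1%) were higher and 14 (38.9%) lower, beside 25.5% and 28.8% of all genes. The counts depended on the scaling. They were 7 higher and 9 lower with upper-quartile factors, beside 31.9% higher and 23.9% lower of all genes. With total counts alone they were 9 and 9, beside 34.8% and 21.7% of all genes. The group's median less that of all genes was -0.13 with TMM, upper-quartile or total-count scaling. Total counts alone placed the median of all genes at 0.10. The other cytosolic genes that fell did so by little. They were HSPA14, an HSP70 bound to ribosomes (-0.27), the HSP110 relatives HSPA4L (-0.23) and HSPA4 (-0.12), DNAJB6, which restrains aggregation (-0.23), the HSP70 and HSP90 adaptor DNAJC7 (-0.22), BAG1 (-0.18) and BAG6 (-0.14), a guide of tail-anchored proteins. HSPA4L, BAG1, BAG6 and HSPA4 each lost the call in at least 5 of 11 alternatives, upper-quartile and total-count scaling among them, with adjusted p up to 0.226 for HSPA4L, 0.269 for BAG1, 0.428 for BAG6 and 0.616 for HSPA4. DNAJC7 lost it without siCEBPG replicate 1 or Control replicate 1, with adjusted p up to 0.0598.

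The 4 cytosolic genes that rose were mostly at modest levels. DNAJB2, a J-protein that directs clients to the proteasome, had 56.7 and 60.0 CPM in siCEBPG libraries and 45.4 and 45.8 CPM in Control libraries (log2 fold change 0.36, SE 0.058 and adjusted p = 0.000103 in edgeR). HSPB8, the small heat shock protein that pairs with BAG3, had 35.7 and 38.7 CPM in siCEBPG libraries and 28.6 and 29.1 CPM in Control libraries (log2 fold change 0.37, SE 0.071 and adjusted p = 0.000465 in edgeR). Both siCEBPG libraries were above both Control libraries for each gene. HSPB8 and BAG3, whose proteins form a complex, were called in opposite directions with TMM factors. The fall of BAG3 was not called with upper-quartile factors or total counts alone. HSPB8 lost its call without Control replicate 1 or 2, with adjusted p up to 0.0536. DNAJC12, a partner of aromatic amino acid hydroxylases, had 20 and 18 counts in siCEBPG libraries against 6 and 11 in Control libraries (log2 fold change 1.06, SE 0.38 and adjusted p = 0.0302 in edgeR), and its call was lost in 6 of 10 alternatives, whichever library was left out (adjusted p up to 0.243). DNAJC21, a factor of ribosome maturation, rose least (0.14, SE 0.048 and adjusted p = 0.0240 in edgeR) and lost its call likewise in 6 of 11 (adjusted p up to 0.197).

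Cytosolic genes that were not called had log2 fold changes between -0.22 and 0.22. Below 0 were DNAJC9 (-0.22, adjusted p = 0.0848 in edgeR), DNAJC2 (-0.14, adjusted p = 0.0803 in edgeR, called lower without siCEBPG replicate 1), BAG2 (-0.13), DNAJC17 (-0.12), HSPA1L (-0.07), DNAJA2 (-0.02) and DNAJB5 (-0.01). Above 0 were BAG5 (0.04), DNAJC8 (0.05), DNAJB4 (0.06), DNAJC24 (0.12), BAG4 (0.14) and HSPA2 (0.22). With total counts alone BAG4, BAG5, DNAJC8 and DNAJC24 were called higher, and all but BAG5 also with upper-quartile factors. DNAJA4 and DNAJB13 had too few counts to be tested.

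In the ER, as in the other compartments, both directions occurred. Of 13 genes tested, 4 (30.8%) were higher and 7 (53.8%) lower, beside 25.5% and 28.8% of all genes. The median log2 fold change of the 13 was -0.15. The split was 5 and 5 with upper-quartile factors, beside 31.9% higher and 23.9% lower of all genes. It was 5 higher and 3 lower with total counts alone, beside 34.8% and 21.7% of all genes. The group's median less that of all genes was -0.15 with TMM, upper-quartile or total-count scaling. Their summed level was 1992 and 2031 CPM in siCEBPG libraries and 2180 and 2144 CPM in Control libraries, without overlap at the TMM scale. As plain shares of the library total the groups overlapped, at 0.207% and 0.210% in siCEBPG libraries and 0.211% and 0.207% in Control libraries.

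Of the lumenal chaperones, HSPA5 and HSP90B1 fell slightly. HSPA5 (BiP), the HSP70 of the ER, had 612 and 630 CPM in siCEBPG libraries and 695 and 685 CPM in Control libraries. HSP90B1 (GRP94), its HSP90, had 764 and 793 CPM in siCEBPG libraries and 878 and 859 CPM in Control libraries. Both siCEBPG libraries were below both Control libraries. Log2 fold changes were -0.15 for HSPA5 (SE 0.035 and adjusted p = 0.0017 in edgeR) and -0.16 for HSP90B1 (SE 0.035 and adjusted p = 0.00133 in edgeR). Total counts alone ended both calls, as did leaving out Control replicate 1. Upper-quartile factors also ended that of HSPA5, and leaving out siCEBPG replicate 1 that of HSP90B1. Adjusted p over the alternatives reached 0.204 for HSPA5 and 0.153 for HSP90B1. DNAJB11, a J-protein of BiP, had 116 and 111 CPM in siCEBPG libraries and 125 and 127 CPM in Control libraries (log2 fold change -0.15, SE 0.045 and adjusted p = 0.0132 in edgeR), and lost its call in 7 of 11 alternatives (adjusted p up to 0.407).

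Among the 60 tested chaperone genes with an entry, the promoters of HSPA5 and HSP90B1 hold the ER stress element, which is CCAAT and CCACG with 9 bases between them, searched on both strands. It occurs in 27 of 35116 promoters (0.0769%) and in 15 of 9351 tested genes with an entry (0.16%). The lines below follow the gene strand on GRCh38.p14, with the element in capitals.
HSPA5, chr9:125241381-125241419, minus strand: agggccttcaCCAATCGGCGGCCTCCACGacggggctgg
HSP90B1, chr12:103930206-103930349, plus strand: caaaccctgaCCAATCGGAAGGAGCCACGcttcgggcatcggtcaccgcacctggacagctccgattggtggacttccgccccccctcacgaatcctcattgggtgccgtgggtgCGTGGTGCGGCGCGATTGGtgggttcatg
Of the 13 other tested genes with the element, 3 were lower and 5 higher, with a median of 0.09. A C/EBP and ATF composite word, TGATGNAAT, was in 0 of these 60 promoters and in that of the untested DNAJA4. It was in 0.991% of all promoters and in 0.695% of tested genes with an entry. The C/EBP palindrome TTGCGCAA was likewise in 0 of 60, in 0.151% of all promoters and in 0.31% of tested genes with an entry. These letters are not in those windows, and nothing about the factors follows from that.

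DNAJB9 (ERdj4), a J-protein that returns BiP to the stress sensor IRE1, fell most in the ER group. It had 15.2 and 14.8 CPM in siCEBPG libraries and 22.1 and 22.1 CPM in Control libraries, with no overlap (log2 fold change -0.56, SE 0.087 and adjusted p = 6.03e-05 in edgeR). DNAJC3 (P58IPK), an inhibitor of the stress kinase PERK and a BiP partner, had 44.9 and 41.9 CPM in siCEBPG libraries and 35.6 and 37.3 CPM in Control libraries. It rose (log2 fold change 0.25, SE 0.066 and adjusted p = 0.00471 in edgeR) but lost its call in 4 of 11 alternatives, among them those without siCEBPG replicate 1 or either Control replicate (adjusted p up to 0.114). DNAJC3-AS1, named as its antisense RNA, rose as well, by 0.54 in log2 units (SE 0.20 and adjusted p = 0.0355 in edgeR). It lost its call in 6 of 10 alternatives (adjusted p up to 0.268). The use of strand is not stated, so reads from any stretch that this pair shares cannot be told apart. Beside 28.8% lower and 25.5% higher of all genes, 5 of 7 genes listed as ER stress-inducible were lower and 1 higher with TMM factors. Of the lower ones, HSPA5 and DNAJB11 lost the call with upper-quartile factors and with total counts alone. HSP90B1 lost it with total counts alone, and HSPA13 and DNAJB9 kept it under both scalings. The median log2 fold change of these 7 was -0.15. DNAJC10 (ERdj5), a disulfide reductase, was the one not called, at 0.09 (adjusted p = 0.0830 in edgeR). DNAJC10 was called higher with upper-quartile factors, total counts alone or the filter at 5 CPM (adjusted p = 0.00341, 0.000887 and 0.00953 in edgeR).

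The J-proteins of the ER membrane parted from each other. DNAJB12, whose J domain faces the cytosol, had 100.3 and 104 CPM in siCEBPG libraries and 73.7 and 77.7 CPM in Control libraries (log2 fold change 0.43, SE 0.050 and adjusted p = 3.25e-06 in edgeR). Its close relative DNAJB14 had 47.0 and 46.6 CPM in siCEBPG libraries and 58.0 and 55.4 CPM in Control libraries (log2 fold change -0.28, SE 0.057 and adjusted p = 0.000836 in edgeR). Both siCEBPG libraries were on one side of both Control libraries for each gene, on opposite sides for the 2 genes. DNAJC18, another relative, had 15.4 and 14.1 CPM in siCEBPG libraries and 10.4 and 10.0 CPM in Control libraries (log2 fold change 0.53, SE 0.11 and adjusted p = 0.000623 in edgeR). All of these calls held under every alternative run. The remaining ER members were HSPA13 (-0.27, lower), DNAJC1 (-0.25, lower), DNAJC16 (0.25, higher) and DNAJC14 (0.08, not called). DNAJC1 and DNAJC16 each lost the call in 5 of 11 alternatives (adjusted p up to 0.101 and 0.182), including those without siCEBPG replicate 1 or either Control replicate. HSPA13 lost it without either siCEBPG replicate or Control replicate 1 (adjusted p up to 0.0954).

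Of 8 mitochondrial genes tested, 2 (25.0%) were higher, 5 (62.5%) lower and HSPE1 not called, beside 25.5% higher and 28.8% lower of all genes. Their median log2 fold change was -0.24, the lowest of the 3 compartments. The difference between compartments was not tested. Their summed level was 1078 and 1059 CPM in siCEBPG libraries and 1364 and 1350 CPM in Control libraries, without overlap on this scale or as shares of the library total.

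HSPA9 (mortalin), the matrix HSP70 that pulls proteins through the import channel, had 505 and 506 CPM in siCEBPG libraries and 675 and 671 CPM in Control libraries. HSPD1 (HSP60), the chaperonin that folds imported proteins, had 336 and 322 CPM in siCEBPG libraries and 428 and 417 CPM in Control libraries. For both, each siCEBPG library was below each Control library. The log2 fold change was -0.41 for HSPA9 (SE 0.034 and adjusted p = 7.25e-08 in edgeR) and -0.36 for HSPD1 (SE 0.037 and adjusted p = 1.09e-06 in edgeR). HSPE1 (HSP10), the lid of that chaperonin, had 22.0 and 19.5 CPM in siCEBPG libraries and 22.5 and 25.7 CPM in Control libraries. Its fold change was -0.22 on a log2 scale (SE 0.092 and adjusted p = 0.0589 in edgeR) and was not called. HSPD1 and HSPE1 have pseudogenes, and the sharing of their reads is uncertain.

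DNAJC19, the J-protein of the import motor at the inner membrane, fell most in this compartment. It had 20.1 and 17.4 CPM in siCEBPG libraries and 29.7 and 30.7 CPM in Control libraries, with a clear gap between the groups (log2 fold change -0.69, SE 0.085 and adjusted p = 6.87e-06 in edgeR). Its pseudogenes leave the same uncertainty. DNAJA3 (TID1), a J-protein of mortalin, had 113 and 113 CPM in siCEBPG libraries and 129 and 128 CPM in Control libraries (log2 fold change -0.19, SE 0.043 and adjusted p = 0.00147 in edgeR). DNAJC11, an outer membrane protein linked to cristae, had a log2 fold change of -0.26 and was also lower. DNAJA3 lost its call with total counts alone (adjusted p = 0.0772 in edgeR), and DNAJC11 without Control replicate 1 or 2 (adjusted p up to 0.0638).

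The 2 genes that rose were DNAJC28 and DNAJC30. DNAJC28 had 74 and 65 counts in siCEBPG libraries and 23 and 29 in Control libraries, and its log2 fold change was the highest of all tested members (1.32, SE 0.22 and adjusted p = 0.00011 in edgeR). DNAJC30, linked to the upkeep of respiratory complex I, had 26.4 and 27.9 CPM in siCEBPG libraries and 17.1 and 15.9 CPM in Control libraries (log2 fold change 0.72, SE 0.084 and adjusted p = 3.88e-06 in edgeR). Neither gene's groups overlapped. DNAJC15, the relative of DNAJC19 in the import motor, had 2 and 2 counts in siCEBPG libraries and 4 and 3 in Control libraries and was not tested.

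Vesicle and unassigned members, a mixed group, had more rises than falls called with TMM factors. Of 10 tested, 5 were higher and 2 lower, beside 25.5% higher and 28.8% lower of all genes. Their median log2 fold change was 0.12, beside 0.005 for all genes. Every call in this group held with upper-quartile factors and with total counts alone, and no other tested member of it gained one. Of all genes 31.9% and 34.8% were then higher, and 23.9% and 21.7% lower. Their summed level was 484 and 489 CPM in siCEBPG libraries and 413 and 409 CPM in Control libraries, higher in siCEBPG also as shares of the library total. DNAJC6 (auxilin), which uncoats clathrin vesicles with HSPA8, had 75.3 and 78.7 CPM in siCEBPG libraries and 55.5 and 52.1 CPM in Control libraries. It rose with no overlap (log2 fold change 0.52, SE 0.056 and adjusted p = 1.47e-06 in edgeR), while HSPA8 fell. DNAJC5, the cysteine string protein of secretory vesicles, rose by 0.29 on the log2 scale (adjusted p = 7.04e-05 in edgeR), and the endosomal DNAJC13 by 0.26 (adjusted p = 0.000504 in edgeR). DNAJC4 rose by 0.53 (adjusted p = 0.000192 in edgeR) and HSPA12A by 0.65 (adjusted p = 0.00416 in edgeR). DNAJC5 lost its call without Control replicate 2 (adjusted p = 0.0569), and DNAJC13 without either Control replicate (up to 0.0862). HSPA12A lost it without either siCEBPG replicate or Control replicate 1 (adjusted p up to 0.145).

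DNAJC22 had a log2 fold change of -0.69 (adjusted p = 0.00166 in edgeR). DNAJC27, a small GTPase with a J domain, had a log2 fold change of -0.50 (adjusted p = 0.00153 in edgeR). Its antisense row DNAJC27-AS1 was higher (log2 fold change 1.24, SE 0.48 and adjusted p = 0.0391 in edgeR). The annotated spans of the pair, chr2:24943636-24972094 and chr2:24971390-25039694 on GRCh38, overlap only at their ends. The use of strand is not stated, so reads from that overlap cannot be told apart. DNAJC22 lost its call without siCEBPG replicate 1 or Control replicate 2 (adjusted p up to 0.0820), and DNAJC27 without either Control replicate (up to 0.0566). DNAJC27-AS1 lost it whichever library was left out (up to 0.198). HSPA12B (-0.29), HSPB11 (-0.06) and DNAJC25 (-0.01) were not called.

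The counts by protein family stand beside 28.8% lower and 25.5% higher among all genes. The HSP90 genes and the HSP110 genes with their relatives were lower in 3 of 3 each. Of these, HSP90B1 lost the call with total counts alone, and HSPA4 and HSPA4L with both upper-quartile and total-count scaling. HSP70 genes were lower in 5 of 11 and higher in 1, HSPA12A. BAG1, BAG3 and BAG6 were lower among the 6 BAG genes, and all of them lost the call under those scalings. J-domain genes were mixed, with 13 of 37 lower and 13 higher. Within them class B had 5 of 9 lower and 2 higher, while DNAJC had 6 of 25 lower and 11 higher. Their summed level was 2285 and 2266 CPM in siCEBPG libraries and 2304 and 2286 CPM in Control libraries, while as plain shares of the library total the siCEBPG libraries were the higher ones, so its direction depended on the scaling.

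Cofactors that work with these chaperones but lie outside the name rule were read from a list of 30. Of 29 tested, 6 (20.7%) were higher and 15 (51.7%) lower, beside 25.5% and 28.8% of all genes. Their median log2 fold change was -0.15. With total counts alone 10 were higher and 12 lower, beside 34.8% and 21.7% of all genes. CHORDC1, a zinc-binding co-chaperone of HSP90, had 30.9 and 30.4 CPM in siCEBPG libraries and 87.2 and 82.7 CPM in Control libraries. HSBP1, a small coiled-coil protein that binds HSF1, had 77.1 and 74.9 CPM in siCEBPG libraries and 180 and 183 CPM in Control libraries. Both genes were far lower in each siCEBPG library, with log2 fold changes of -1.47 for CHORDC1 (SE 0.059 and adjusted p = 2.54e-11 in edgeR) and -1.26 for HSBP1 (SE 0.045 and adjusted p = 8.43e-12 in edgeR). The change of CHORDC1 was larger than that of any tested member. STIP1 (HOP), the adaptor that hands clients to HSP90, had 214 and 208 CPM in siCEBPG libraries and 318 and 325 CPM in Control libraries (log2 fold change -0.61, SE 0.038 and adjusted p = 3.84e-09 in edgeR). The HSP90 co-chaperone genes FKBP4 (-0.48) and PTGES3 (-0.44) and the mitochondrial exchange factor gene GRPEL1 (-0.48) were lower as well.

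Among the cofactors that rose, ST13 (HIP), which holds HSP70 bound to its client, had 106 and 111 CPM in siCEBPG libraries and 88.9 and 85.4 CPM in Control libraries (log2 fold change 0.31, adjusted p = 5.95e-05 in edgeR). UNC45A, a myosin chaperone, rose by 0.35 (adjusted p = 9.0e-05 in edgeR), and HSCB, a J-protein of iron-sulfur cluster assembly, by 0.46 (adjusted p = 0.0160 in edgeR). HSCB lost its call in 5 of 11 alternatives (adjusted p up to 0.204), among them those without siCEBPG replicate 2 or either Control replicate. CHORDC1, HSBP1, STIP1, FKBP4, PTGES3, GRPEL1, ST13 and UNC45A kept theirs in all of them. HYOU1 (GRP170), a large HSP70 relative of the ER lumen, had 316 and 331 CPM in siCEBPG libraries and 300 and 290 CPM in Control libraries. It was higher, unlike HSPA5 and HSP90B1 (log2 fold change 0.13, SE 0.039 and adjusted p = 0.00964 in edgeR), and lost its call without siCEBPG replicate 2 or either Control replicate (adjusted p up to 0.183).

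The 3′ UTRs of members were searched for GGCTATT on the transcript strand. This 7-base word had been found earlier in these same libraries as frequent among genes that fell, so its counts here are no independent evidence. With 1 transcript per gene (GENCODE 29, GRCh38), it was in 10 of 66 members whose 3′ UTR has 50 bases or more (15.2%) and in 6.94% of all such genes. Of the 10, 6 were lower and 2 higher, with a median log2 fold change of -0.25. The 56 without it had 21 lower and 13 higher, with a median of -0.10. Among all genes with the word 61.7% were lower, and among all without it 31.0%. The sites in the 2 mitochondrial genes of the import motor that fell are shown, with the word in capitals.
DNAJC19, chr3:180983849-180983877, minus strand: ttccttcagttGGCTATTtcttgacataa
HSPA9, chr5:138555002-138555030, minus strand: aaaaccaaggtGGCTATTttcaggttgct
HSPA13, HSPA14, HSPA4L and DNAJC22 were the other lower genes with the word, DNAJC21 and DNAJC28 the higher ones, and DNAJB4 and DNAJC10 were not called. The name HSPA14 has a shorter entry ending at chr10:14847018 and a longer one ending at 14871741. Its site, at 14846182-14846210, is on a transcript of 4 exons and lies within the shorter entry. It is counted here, but may not be in the 3′ UTR of the HSP70 gene. HSPA8, HSP90AB1, HSP90AA1 and HSPD1 lack the word and fell. The sources used here do not give the siRNA sequence.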

How the data were processed

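RNA-seq of 2 siCEBPG and 2 Control libraries was analysed from 1 table. The read count columns were deposited by the authors as whole numbers, and no gene has under 10 counts over the 4 libraries. The submitters' processing notes name the build hg19 and the tools RSEM 1.2.12, DESeq 3.4, Bowtie2 2.2.5 and HISAT2 2.0.4, with no role stated. Because RSEM is named, the counts may be rounded estimates. The sources used here do not give the annotation, the use of strand or any rounding. RPKM values per library are the authors', per the file headers. The deposited signal column (mean normalised count), log2 fold change, Wald score and p-value columns entered no test.

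Groups and replicate numbers came from sample titles. Fold changes are siCEBPG over Control from edgeR 4.0.16 (R 4.3.3), on counts as deposited, with TMM factors, filterByExpr (minimum count 10), the two-sided quasi-likelihood F test and Benjamini-Hochberg adjustment over 14207 genes, threshold 0.05. The script was tested on simulated data. Within-group libraries differed by a chi-square of 1.84 (siCEBPG) and 1.50 (Control) per gene, and groups by 32.5 to 33.3, so no library was a copy. Alternatives were RLE, upper-quartile and total-count scaling, 2 filters, a replicate block, leaving out each library, and DESeq2 1.42.0. Leaving out pseudogene and antisense rows, the counts by level and for heat-inducible genes under each alternative, and the scaling of summed levels were added after the data were seen. Described whatever their result were 22 genes, including the heat shock factors and main chaperones, with the 8 largest called rises and falls without overlap, the 4 nearest the threshold on each side, and the 3 largest called cofactor changes each way. Other members are given by class. Genes further named as having or lacking a word were chosen after their values were seen. The members and lists were chosen with earlier results of these data known. GRCh38 positions come from reference tables matched by gene name and were not mixed with hg19.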

Additional observations from a re-analysis of the deposited data

How the results depend on the processing

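Of the 46 called members, 20 kept their call in each of the alternatives that gave a value. These were HSPA8, HSP90AB1, HSP90AA1, HSPA9, HSPD1, HSPA14, HSPA8P1, DNAJA1, DNAJB1, DNAJB6, DNAJB9, DNAJB14 and DNAJC19 as lower, and DNAJB2, DNAJB12, DNAJC4, DNAJC6, DNAJC18, DNAJC28 and DNAJC30 as higher. The other 26 lost it in at least 1, and 0 called members changed sign. Under the replicate block there were 18 members higher and 31 lower, with 0 calls lost and 3 gained, HSPE1 and DNAJC2 as lower and DNAJC10 as higher; all genes had 3811 higher and 4319 lower. The labels do not say what the replicate numbers share, and deviations of same-numbered libraries had a correlation of 0.036 across 14207 genes, with 2 pairs only. Without pseudogene and antisense rows 15 members were higher and 28 lower.

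With DESeq2, 2210 genes in all were higher and 3216 lower, and 11 members were higher (2 cytosolic, 2 in the ER) and 25 lower, with 3 cofactors higher. Total counts alone gave 23 members higher and 19 lower (9 and 9 cytosolic, 5 and 3 in the ER), with 10 cofactors higher and 12 lower. Upper-quartile factors gave 21 members higher and 22 lower (7 and 9 cytosolic, 5 and 5 in the ER), with 9 cofactors higher and 13 lower. Of all genes, 4939 were higher and 3079 lower with total counts alone, and 4525 and 3396 with upper-quartile factors. Without a filter 2 cytosolic members, 4 cofactors and 12 members in all were higher. Of the members of at least 100 CPM, 9 were lower with total counts alone. With a mean of at least 5 CPM 1 mitochondrial member was higher. Leaving out 1 library at a time gave 1737 to 2345 genes higher and 2572 to 3049 lower. Members then numbered 8 to 12 higher and 16 to 24 lower, cytosolic ones 1 to 2 and 8 to 11, those of at least 100 CPM 10 to 13 lower, heat-inducible ones 7 lower in each case, ER ones 2 to 4 and 2 to 5, and cofactors 2 to 4 higher and 10 to 14 lower. Each of these fits has 1 group with a lone library, assumed to vary like the other.

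Direction turned only in members that were not called with TMM, of which HSPB1 was then called higher with total counts alone. With total counts alone the log2 fold change was 0.076 for DNAJA2, 0.091 for DNAJB5, 0.086 for DNAJC25, 0.047 for HSF1, 0.051 for HSPA1B, 0.024 for HSPA1L, 0.093 for HSPB1 and 0.042 for HSPB11. Upper-quartile factors gave 0.046 for DNAJA2, 0.062 for DNAJB5, 0.057 for DNAJC25, 0.018 for HSF1, 0.022 for HSPA1B, 0.064 for HSPB1 and 0.013 for HSPB11. With the 5 CPM filter it was 0.020 for DNAJA2, 0.036 for DNAJB5, 0.031 for DNAJC25 and 0.038 for HSPB1. Leaving out 1 library gave ranges of -0.34 to 0.11 for BAG2, -0.067 to 0.023 for DNAJA2, -0.023 to 0.13 for DNAJB4, -0.16 to 0.16 for DNAJB5, -0.012 to 0.17 for DNAJC14, -0.29 to 0.029 for DNAJC17, -0.064 to 0.041 for DNAJC25, -0.014 to 0.090 for HSPA1A, -0.17 to 0.076 for HSPA1B, -0.30 to 0.13 for HSPA1L, -0.063 to 0.054 for HSPB1 and -0.13 to 0.0083 for HSPB11. The cause was not tested. Few reads limit DNAJC12, DNAJC28 and the antisense rows.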
